A study of Mus musculus with 2 samples.

Results

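The 5 genes described here encode the mouse receptors for the constant (Fc) part of IgG, Fcgr1, Fcgr2b, Fcgr3 and Fcgr4, and the signaling chain Fcer1g. They were found by symbol and are 5 of the 27998 genes listed in each of 2 droplet-based single-cell libraries. The cells were tumor mononuclear phagocytes (TMPs) of C57Bl/6 mice, sorted as MerTk+ CD64+ from enzymatically digested B16 melanoma, a mouse melanoma line that had been implanted in the skin. One library came from Fcmr+/+ mice and the other from Fcmr-/- mice, which lack in all cells the putative receptor for soluble IgM. The methods describe littermate controls matched for sex, age and cage, whereas the number of mice pooled in a library and the age itself are not given in the sources used here. Genotypes were thus compared with 1 library each, no test between them was possible, and the intervals given are exact 95% intervals that cover counting error only.

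An Fc receptor ties antibody to the cell that carries it. When IgG on a target clusters the activating receptors, kinases of the Src family phosphorylate the activation motif (ITAM) of the Fcer1g chain, Syk binds there, and the phagocyte takes up the target, releases cytokines and makes reactive oxygen. Fcgr1 (CD64) binds monomeric IgG with high affinity, Fcgr3 (CD16) binds immune complexes with low affinity, and Fcgr4 is an activating receptor for some IgG subclasses. Each of these chains needs Fcer1g for its surface expression and its signal. Fcgr2b, the inhibitory receptor of the family, carries an inhibition motif (ITIM) of its own and recruits the phosphatase encoded by Inpp5d. In tumors, macrophages use these receptors when an antibody bound to tumor cells leads to their engulfment. Interferon gamma is a textbook inducer of Fcgr1.

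The sort itself bears on the family. CD64 is the product of Fcgr1, so cells with little of that protein were left out by the gate, and the methods describe an Fc block before staining with an antibody to the proteins of Fcgr3 and Fcgr2b. In GRCm38, Fcgr2b (chr1:170958617-170976547, minus strand), Fcgr4 (chr1:171018920-171029761, plus strand), Fcgr3 (chr1:171051174-171064935, minus strand) and Fcer1g (chr1:171229572-171234365, minus strand) lie within 276 kb of chromosome 1. Fcmr is on the same chromosome, 40.1 Mb away at chr1:130865669-130880791, and Fcgr1 is on chromosome 3 (chr3:96282909-96293969, minus strand). Fcgr2b and Fcgr3 shared 238 runs of 30 bases along their longest transcripts but 0 in the last 500 bases, where a 3′ library takes its tags, and no other pair of the 5 genes shared any.

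Promoter sequences of Fcgr1, Fcgr4 and Fcgr3 are printed to show the letters before the starts of the 2 genes whose level was higher in the Fcmr-/- library, beside 1 whose level was not. Each runs 5′ to 3′ from 250 bases before to 50 bases after the RefSeq start in GRCm38.p6. The windows are chr3:96293920-96294219 (minus strand), chr1:171018676-171018975 (plus strand) and chr1:171059354-171059653 (minus strand, at 1 of 2 starts listed for Fcgr3). Capitals mark matches on either strand to TTCNNNGAA (GAS, the gamma-activated site), GAAA, any 2 bases and GAAA again (the form of an interferon-stimulated response element, ISRE) and GAGGAA (the core bound by the myeloid factor PU.1). No match overlapped another.
Fcgr1: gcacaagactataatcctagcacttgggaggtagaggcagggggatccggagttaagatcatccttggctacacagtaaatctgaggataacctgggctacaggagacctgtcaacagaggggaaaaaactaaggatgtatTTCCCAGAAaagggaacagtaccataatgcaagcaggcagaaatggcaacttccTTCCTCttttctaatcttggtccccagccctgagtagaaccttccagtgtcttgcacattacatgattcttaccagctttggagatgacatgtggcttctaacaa
Fcgr4: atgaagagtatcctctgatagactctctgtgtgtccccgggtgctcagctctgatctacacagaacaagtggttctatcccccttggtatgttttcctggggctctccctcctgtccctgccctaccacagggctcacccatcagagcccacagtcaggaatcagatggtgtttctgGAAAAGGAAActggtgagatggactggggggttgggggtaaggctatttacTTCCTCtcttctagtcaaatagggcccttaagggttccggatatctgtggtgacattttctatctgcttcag
Fcgr3: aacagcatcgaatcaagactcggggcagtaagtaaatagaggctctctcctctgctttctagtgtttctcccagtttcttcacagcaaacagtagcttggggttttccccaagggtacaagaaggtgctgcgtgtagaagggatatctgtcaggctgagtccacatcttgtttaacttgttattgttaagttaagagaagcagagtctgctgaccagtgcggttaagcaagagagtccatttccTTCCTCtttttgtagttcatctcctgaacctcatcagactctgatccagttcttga
The Fcgr1 window held 1 GAS match, TTCCCAGAA, starting 109 bases before the start, and 1 PU.1 match 55 bases before it. In the Fcgr4 window there was 1 ISRE match, GAAAAGGAAA, 73 bases before the start, and 1 PU.1 match 22 bases before it. The Fcgr3 window held a PU.1 match alone, 6 bases before the start used. That window lies inside the gene, whose 5′ end on the minus strand is at chr1:171064935 in the positions given above. The other listed start of Fcgr3 is not covered, so the absence of a GAS or ISRE match holds for this window only. Neither Fcer1g nor Fcgr2b had a match to any of the 3 in its window. That of Fcgr2b (chr1:170976022-170976321, minus strand) also lies inside the gene, whose 5′ end is at chr1:170976547. For Fcgr2b, too, the absence holds for the window used only. Over 27025 promoters of this length, 8.47% held the GAS form, 3.49% the ISRE form and 28.3% the PU.1 core.

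After the filters of the methods, 6352 Fcmr+/+ and 7999 Fcmr-/- cells were kept, with 128408544 and 124630621 unique molecular identifiers (UMIs) in all. Median depth was 17973.5 UMIs in Fcmr+/+ and 12911 in Fcmr-/- cells, and 73 cell barcodes occurred in both libraries. Fcmr itself had 7 UMIs in Fcmr+/+ and 6 in Fcmr-/- cells, too few to check a genotype. Of the 9 macrophage markers, 9 were detected in both libraries, and their summed level was 16940 CPM (UMIs per 1000000 UMIs) in Fcmr+/+ and 14752 CPM in Fcmr-/- cells. Markers of other cells were at low levels, and several were higher in the Fcmr-/- library. The T cell list (5 of 8 detected, 3 at 0 in each library) summed to 2.60 and 7.93 CPM in Fcmr+/+ and Fcmr-/- cells. The NK cell list (6 of 7 detected) summed to 0.506 and 9.94 CPM, and the melanoma list (7 of 7) to 78.0 and 108 CPM. The neutrophil list (5 of 6) summed to 31.2 and 47.6 CPM, and the B cell list (5 of 6) to 12.4 and 10.4 CPM. Most cells still held a UMI of the T cell, NK cell or melanoma markers, as only 2134 Fcmr+/+ and 2634 Fcmr-/- cells had none.

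Between the genotypes, 2 of the 5 genes were at least 1.5-fold higher in the Fcmr-/- library, Fcgr4 and Fcgr1, against 2.4% of all 8701 genes with at least 5 CPM in either library (209 genes). None was lower by that size (0 of 5, against 1.69% or 147 genes). The other 3 members, Fcgr3, Fcer1g and Fcgr2b, lay within 1.07-fold of an equal level. The median log2 ratio of all genes tested was 0.0023 (Fcmr-/- over Fcmr+/+, with 1 CPM added to each level), so the libraries were centered on each other.

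Fcgr4 had the largest difference of the family. Its level was 110 CPM (interval 108 to 112) in the Fcmr+/+ library and 275 CPM (interval 272 to 278) in the Fcmr-/- library, and these did not overlap. The ratio was 2.50 (interval 2.45 to 2.55), a log2 ratio of 1.32, the 45th highest of 8701 genes. Fcgr1 followed, with 250.4 CPM (interval 247.6 to 253.1) in Fcmr+/+ and 394 CPM (interval 391 to 398) in Fcmr-/- cells. Its ratio of 1.58 (interval 1.55 to 1.60), or 0.65 on the log2 scale, lay just past the 1.5-fold limit. Since the sort selected for the protein of this gene, its level describes the cells that passed the gate and not the tumor's phagocytes at large.

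The low-affinity activating receptor Fcgr3 was at 635 CPM (interval 631 to 639) in Fcmr+/+ and 610 CPM (interval 606 to 614) in Fcmr-/- cells, a ratio of 0.961 (interval 0.951 to 0.970). The chain Fcer1g was among the most abundant transcripts of these cells, the 39th of 8701 by level, at 2667 CPM (interval 2658 to 2676) in Fcmr+/+ and 2831 CPM (interval 2822 to 2841) in Fcmr-/- cells. Its ratio was 1.06 (interval 1.06 to 1.07). The inhibitory receptor Fcgr2b was at 485 CPM (interval 481 to 489) in Fcmr+/+ and 462 CPM (interval 458 to 466) in Fcmr-/- cells, a ratio of 0.952 (interval 0.942 to 0.963). The counting intervals of the 2 libraries did not overlap for any of these 3 genes, but the spread between mice is unknown and differences of this size have no replicate check.

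**Figure D1:**
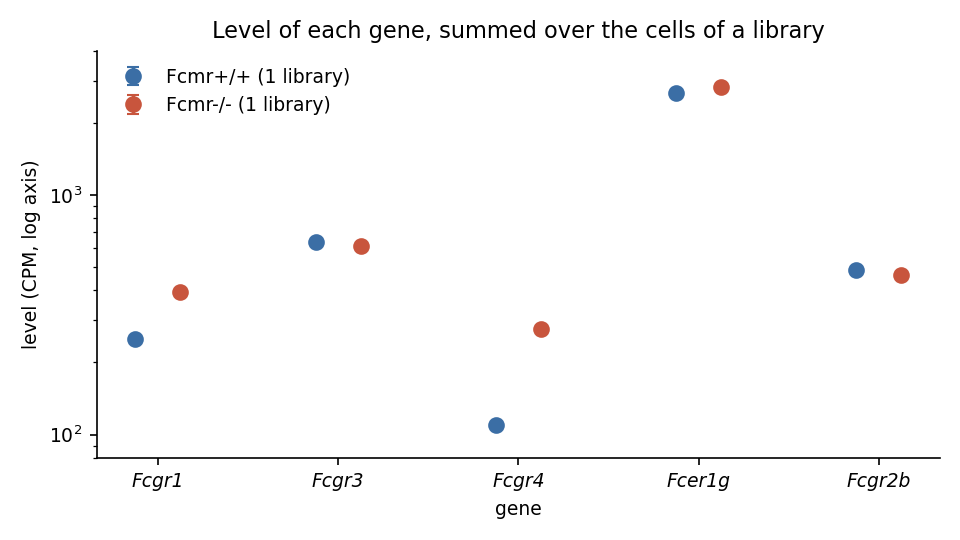
Level of each gene in CPM (log axis) in the Fcmr+/+ library (blue) and the Fcmr-/- library (red), 1 library each, with exact 95% Poisson intervals, most of them smaller than the points. Fcgr1 and Fcgr4 stand apart between the libraries, at 250.4 and 394 CPM and at 110 and 275 CPM, whereas the points of Fcgr3, Fcer1g and Fcgr2b lie nearly level.

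**Figure D2:**
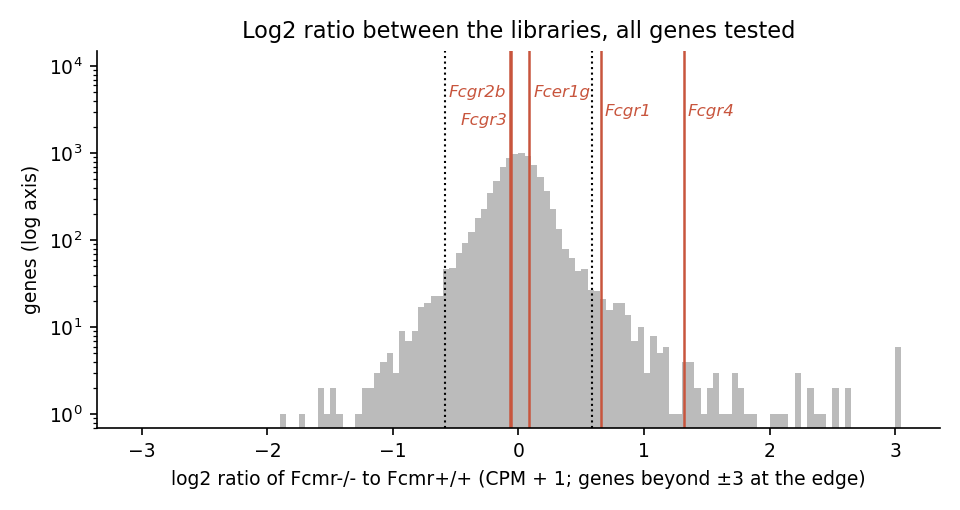
Log2 ratio of Fcmr-/- to Fcmr+/+ CPM for the 8701 genes tested (gray, number of genes on a log axis), with the 5 genes as red lines and the 1.5-fold limits dotted. Fcgr1 (0.65) and Fcgr4 (1.32) lie right of the upper limit, and Fcgr3, Fcgr2b and Fcer1g lie in the center of the distribution.

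The UMIs of the 3 activating receptors were set against those of Fcgr2b within each group of cells. A UMI marks 1 captured 3′ end, so no length enters, but capture may differ between genes and the ratios are not protein ratios. In Fcmr+/+ cells there were 2.05 activating UMIs per Fcgr2b UMI (interval 2.03 to 2.07), and in Fcmr-/- cells 2.77 (interval 2.74 to 2.80). Fcgr3 gave 63.8% of the activating UMIs in Fcmr+/+ and 47.7% in Fcmr-/- cells. The share of Fcgr4 was 11.1% in Fcmr+/+ and 21.5% in Fcmr-/- cells, and that of Fcgr1 was 25.2% and 30.8%. For each activating UMI there were 2.68 Fcer1g UMIs in Fcmr+/+ and 2.21 in Fcmr-/- cells.

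Shares of cells with a UMI were compared after every cell was thinned to 6403 UMIs, which left out 72 Fcmr+/+ and 646 Fcmr-/- cells that had fewer. Fcgr4 was detected in 45.3% of thinned Fcmr+/+ cells (interval 44.1 to 46.5) and in 66.4% of thinned Fcmr-/- cells (interval 65.3 to 67.4). Unthinned cells held a UMI of it in 70.6% and 79.5%. The thinned level of Fcgr4 in Fcmr+/+ cells, 120 CPM, is under the 156 CPM that 1 UMI is worth at this depth, so the difference is read from the levels above and not from these shares. Fcgr1 was detected in 71.8% (interval 70.6 to 72.9) of thinned Fcmr+/+ and 81.8% (interval 80.9 to 82.7) of thinned Fcmr-/- cells, against 90.0% and 91.8% without thinning.

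The shares of the other 3 genes differed less between the libraries. Fcer1g had a UMI in 6279 of 6280 thinned Fcmr+/+ and 7347 of 7353 thinned Fcmr-/- cells. Fcgr3 was detected in 94.7% of thinned Fcmr+/+ and 94.1% of thinned Fcmr-/- cells, and Fcgr2b in 86.6% and 84.6%. Cells that should lack the receptors were too few to set a level for free RNA. Only 8 cells, all in the Fcmr-/- library, had fewer than 5 UMIs of the macrophage list; at a median of 7182 UMIs and without thinning, 8 of 8 held Fcer1g, 3 Fcgr2b, 2 Fcgr4, 2 Fcgr3 and 1 Fcgr1. The 29 Fcmr-/- cells with at least 3 UMIs of the T cell receptor chains Cd3d, Cd3e and Cd3g held a median of 88 macrophage UMIs as well, and there were 3 such cells in the Fcmr+/+ library.

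UMIs of several receptors were found together in most cells, with no level set for free RNA. Pairs were found together nearly as often as the product of their single shares gives. The widest gap was that of Fcgr1 with Fcgr4, in 34.7% of thinned Fcmr+/+ cells against a product of 32.5%. In thinned Fcmr-/- cells that pair was in 56.5% against 54.3%. Most single shares were high, which leaves a pair little room to depart from the product. Nearness to it thus does not show that the genes were independent. Fcgr2b, for example, was in 85.5% of thinned Fcmr-/- cells with Fcgr3 and in 69.4% of those without it. In thinned Fcmr+/+ cells these shares were 87.3% and 74.1%. The combinations below are to be read against the single shares. At equal depth, 29.8% of Fcmr+/+ cells (interval 28.7 to 31.0) and 46.7% of Fcmr-/- cells (interval 45.5 to 47.8) had a UMI of all 4 receptors. The combination of Fcgr1, Fcgr3 and Fcgr2b without Fcgr4 was found in 29.9% of Fcmr+/+ and 19.8% of Fcmr-/- cells. Fcgr3 with Fcgr2b alone made up 14.2% of Fcmr+/+ and 6.05% of Fcmr-/- cells. Cells with Fcgr2b as the only receptor detected were rare, 58 of 6280 in Fcmr+/+ and 56 of 7353 in Fcmr-/-. The same limit of 1 UMI applies, since Fcgr4 decides between the larger classes.

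**Figure D3:**
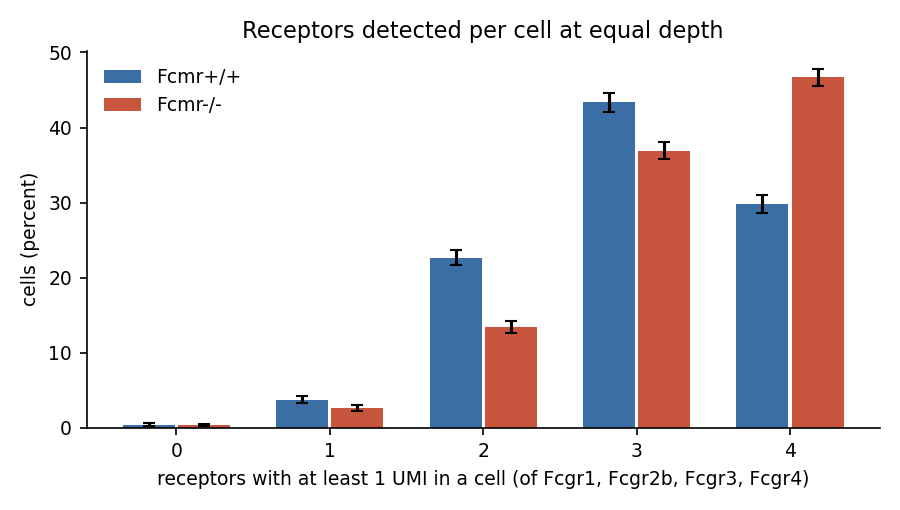
Share of cells (percent, with exact 95% binomial intervals) by the number of receptors among Fcgr1, Fcgr2b, Fcgr3 and Fcgr4 with at least 1 UMI, after thinning every cell to 6403 UMIs. Fcmr+/+ cells (blue) peak at 3 receptors (43.3%) and Fcmr-/- cells (red) at 4 (46.7%).

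Within a library, the genes of the family varied together only weakly from cell to cell, as sparse counts allow. In thinned Fcmr+/+ cells (n = 6280), the highest correlation was that of Fcgr3 with Fcgr2b (Pearson r = 0.22), next to Fcgr3 with Fcer1g (r = 0.18) and Fcgr1 with Fcgr4 (r = 0.17). In thinned Fcmr-/- cells (n = 7353), it was that of Fcgr4 with Fcer1g (r = 0.31), followed by Fcgr3 with Fcgr2b (r = 0.22) and Fcgr1 with Fcgr4 (r = 0.22). Fcgr1 with Fcgr2b was lowest in Fcmr-/- cells (r = 0.044). Fcgr4 was found in 69.1% of thinned Fcmr-/- cells with Fcgr1 and in 54.2% of those without it, and in Fcmr+/+ cells in 48.4% and 37.4%. These cells share a library, and the values are given as descriptions.

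Cell states were set by clustering both libraries together with the 5 genes left out, so their levels did not shape the groups. The 11 clusters held 647 to 2087 cells each and are named by number and leading genes. Cluster 1 was led by Ccl17 and Cd209a, cluster 2 by Cxcl3 and Csf3, cluster 3 by Tfrc and Gpr34, cluster 4 by Ly6i and Ly6c2, cluster 5 by the division genes Cenpf and Nusap1, and cluster 6 by hemoglobin transcripts and Adm. Cluster 7 was led by Amica1 and Zmynd15, cluster 8 by Iigp1 and Cxcl9, cluster 9 by Rsad2 and Ifit1bl1, cluster 10 by Plpp3 and Mfge8, and cluster 11 by Adm and Rragd. Clusters 4 and 8 were 96.0% and 95.2% Fcmr-/- cells, with 62 and 47 Fcmr+/+ cells, so state and library cannot be told apart there.

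Fcgr1 varied widely across states. Over both libraries its level ran from 120 CPM in cluster 11 to 887 CPM in cluster 9, the cells with high Rsad2 and Ifit transcripts, a 7.37-fold range (interval 6.99 to 7.77) that was 4.66-fold over the fewer clusters of resolution 0.4, where Fcgr4 had a 4.56-fold range. Cluster 4 came next, then clusters 8 and 2, whose intervals overlapped at 380 and 379 CPM. The lowest after cluster 11 were clusters 3 and 5. The extremes were the same clusters in each library taken alone, with 709 CPM in cluster 9 and 117 CPM in cluster 11 in Fcmr+/+ cells, and 959 and 133 CPM in Fcmr-/- cells.

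Fcgr4 followed another order. It was highest in clusters 8 (448 CPM) and 4 (410 CPM), then in cluster 9, and lowest in cluster 11 (88.5 CPM), a 5.06-fold range (interval 4.76 to 5.38). The order differed between libraries, as cluster 5 was at 238 CPM in Fcmr-/- cells, next below cluster 9. Cluster 7 overlapped it there, at 238 CPM (interval 223 to 253). Among Fcmr+/+ cells alone Fcgr4 was highest in cluster 4 (302 CPM, 62 cells). Clusters 9 (220 CPM) and 8 (219 CPM, 47 cells) came next, with intervals that overlapped. It was lowest in the dividing cells of cluster 5 (70.0 CPM).

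The inhibitory Fcgr2b was highest in cluster 1 (713 CPM), the Ccl17 and Cd209a cells, and lowest in cluster 10 (225 CPM), a 3.17-fold range (interval 3.05 to 3.30; 1.95-fold at resolution 0.4), with the same extremes in each library. Cluster 10 also had the most activating UMIs per Fcgr2b UMI, 4.17 (interval 3.90 to 4.45) in Fcmr+/+ and 4.20 (interval 3.99 to 4.43) in Fcmr-/- cells. Cluster 1 had the fewest in both libraries, 1.48 (interval 1.45 to 1.51) in Fcmr+/+ and 1.62 (interval 1.57 to 1.66) in Fcmr-/- cells, where cluster 11 overlapped it at 1.68 (interval 1.57 to 1.80). Ranges within a library leave out groups under 50 cells, which here is cluster 8 of Fcmr+/+ (47 cells). Fcgr3 and Fcer1g varied less, 1.46-fold and 1.45-fold over the other clusters in Fcmr+/+ cells and 1.59-fold and 1.56-fold in Fcmr-/- cells. Over those groups Fcgr3 ran from 526 CPM in cluster 9 to 765 CPM in cluster 7 among Fcmr+/+ cells. Cluster 6 (531 CPM), for example, overlapped the lowest, and cluster 4 (765 CPM, 62 cells) the highest. The 47 cells left out were higher, at 828 CPM (interval 774 to 884), so the Fcmr+/+ range of Fcgr3 is wider with them. Among Fcmr-/- cells Fcgr3 ran from 466 CPM in cluster 11, which cluster 10 overlapped at 469 CPM, to 741 CPM in cluster 8. Fcer1g was lowest in cluster 6 in Fcmr+/+ cells, at 2199 CPM. In Fcmr-/- cells clusters 6 (2093 CPM) and 10 (2094 CPM) were lowest, with intervals that overlapped. It was highest in cluster 4 (3189 CPM) in Fcmr+/+ cells, where cluster 7 (3070 CPM) overlapped it. Cluster 8 (3261 CPM) was highest in Fcmr-/- cells, where clusters 7 (3249 CPM) and 4 (3239 CPM) overlapped it.

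**Figure D4:**
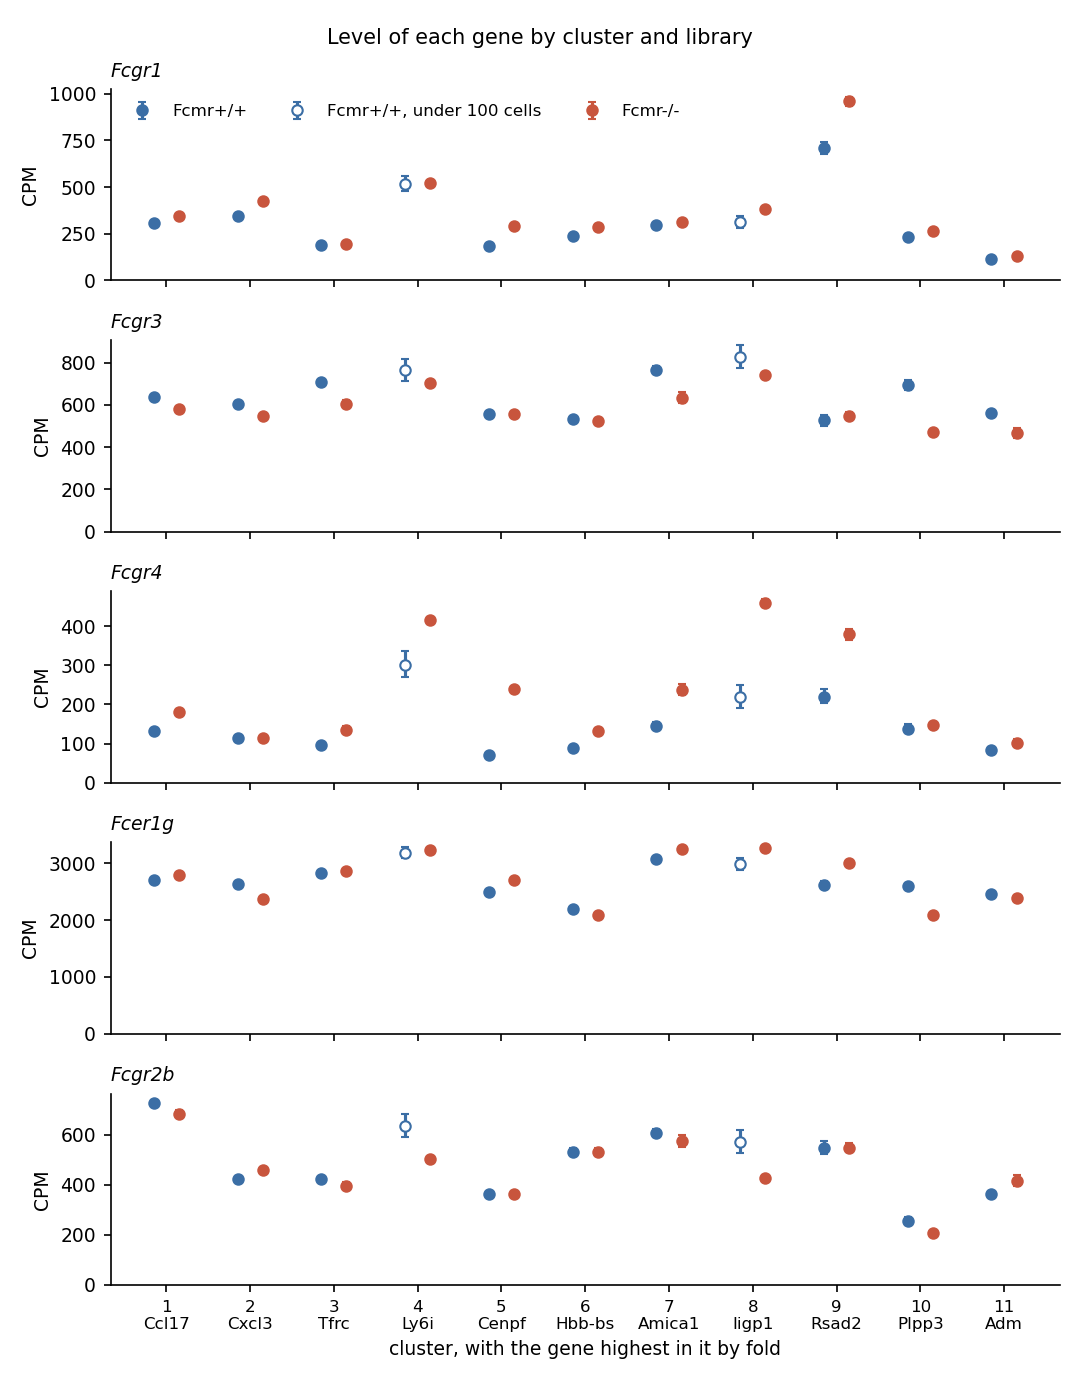
Level in CPM of each gene by cluster (horizontal axis, with the gene highest in the cluster by fold) in Fcmr+/+ (blue) and Fcmr-/- (red) cells, with exact 95% Poisson intervals; open points are groups under 100 cells. Fcgr1 peaks in cluster 9, Fcgr4 in clusters 4 and 8 of the Fcmr-/- library and Fcgr2b in cluster 1. Fcer1g and Fcgr3 vary less between clusters.

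Averaged over the clusters with equal weight, the ratio between libraries was 1.52 for Fcgr4 and 1.18 for Fcgr1, less than over all cells. Fcgr4 was higher in Fcmr-/- cells, with an interval above 1, in 9 of 11 clusters, and in 0 was it lower; the ratio ran from 1.02 in cluster 2 to 3.41 in cluster 5. In those dividing cells Fcgr4 was at 70.0 CPM (interval 66.5 to 73.6) in Fcmr+/+ and 238 CPM (interval 232 to 246) in Fcmr-/- cells. Cluster 5 was led by division genes, so its cells need not share other states between the libraries, and this was not tested. Fcgr1 was higher in 8 of 11 clusters and lower in 0, with ratios from 1.00 in cluster 4 to 1.57 in cluster 5. At the cluster mix of the Fcmr+/+ library, the ratio of Fcmr-/- to Fcmr+/+ was 1.58 for Fcgr4 and 1.19 for Fcgr1, against 2.50 and 1.58 over all cells. Without clusters 4, 8 and 9, chosen after seeing the data, the log2 ratio of Fcgr4 was 0.70 and that of Fcgr1 was 0.36, under the limit of 0.58.

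Fcgr3 went the other way inside the clusters: its interval lay below 1 in 8 of 11 and above 1 in 0. Cluster counts of higher and lower rest on counting intervals that exclude 1, not on the 1.5-fold limit, so small ratios enter them. The ratio of Fcgr3 was lowest in cluster 10, at 0.677 (interval 0.646 to 0.710), which is within the 1.5-fold limit. Its level there was 693 CPM in Fcmr+/+ and 469 CPM in Fcmr-/- cells. Fcgr2b was lower in 6 and higher in 2 clusters, with the lowest ratio, 0.749 (interval 0.690 to 0.815), in cluster 8, where 47 Fcmr+/+ cells gave 573 CPM and 940 Fcmr-/- cells 429 CPM. Fcer1g was higher in 5 and lower in 4, between 0.804 in cluster 10 and 1.15 in cluster 9. The number of activating UMIs per Fcgr2b UMI was higher in Fcmr-/- cells, with intervals apart, in 6 of 11 clusters, lower in 1 (cluster 11, 2.10 in Fcmr+/+ and 1.68 in Fcmr-/-), and overlapped in 4.

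Fcgr4 and Fcgr1 were higher in the Fcmr-/- library at each depth. In 4 bins of cells by UMIs, chosen after seeing the data, the ratio of Fcgr4 was 1.62 (interval 1.52 to 1.72) in the shallowest bin and 2.92 (interval 2.83 to 3.01) in the deepest, and that of Fcgr1 lay between 1.34 and 1.55. In each library the level of Fcgr1 was lower in deeper cells, at 400 CPM in the shallowest and 219 CPM in the deepest bin of Fcmr+/+ cells and at 558 and 340 CPM in Fcmr-/- cells. Among the 2134 Fcmr+/+ and 2634 Fcmr-/- cells without a UMI of the T cell, NK cell and melanoma markers, the log2 ratio was 1.15 for Fcgr4 and 0.63 for Fcgr1.

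The genes were then set beside an interferon gamma response list, to which none of the 5 belongs. Of its 22 genes, 20 were at least 1.5-fold higher in the Fcmr-/- library and 0 lower, with a median log2 ratio of 1.14, against 2.4% higher and 1.69% lower among all genes tested. The list was chosen with earlier results of these data known and holds leading genes of clusters 4 and 8. Its count thus describes the libraries and is no independent check. Cxcl9, a T cell chemoattractant, was at 14.5 and 186 CPM, and Gbp2, a guanylate-binding protein, at 21.4 and 139 CPM. In each library, the 25% of cells with the highest summed share of this list were compared with the 25% with the lowest. Abundant genes weigh most in such a sum. In Fcmr+/+ cells Gbp4 and Iigp1 were at 2.24 and 3.19 CPM and Psmb8 at 237 CPM. In Fcmr-/- cells these were at 29.5, 72.6 and 418 CPM. The highest cells of the 2 libraries need not be alike in the list, so the ratios below are not on 1 scale. In Fcmr-/- cells Fcgr4 was at 113 CPM in the lowest and 486 CPM in the highest cells, a ratio of 4.29 (interval 4.12 to 4.46). In Fcmr+/+ cells it was at 89.7 and 153 CPM, a ratio of 1.71 (interval 1.63 to 1.79). Fcgr1 was at 272 and 523 CPM in Fcmr-/- cells, a ratio of 1.92 (interval 1.87 to 1.97), and was at 212 and 338 CPM in Fcmr+/+ cells, a ratio of 1.60 (interval 1.55 to 1.65).

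Fcgr3 and Fcer1g differed little between highest and lowest Fcmr+/+ cells, with ratios of 1.04 and 1.05, and had ratios of 1.40 and 1.32 in Fcmr-/- cells. Fcgr2b had ratios of 1.38 in Fcmr+/+ and 1.16 in Fcmr-/- cells. The lists' cells are cells of 1 library, so these ratios describe it, and the difference between genotypes was not tested. Median UMIs were 16568 in the lowest and 15671 in the highest Fcmr+/+ cells. In Fcmr-/- cells they were 11651 and 14483, and the part of depth in these ratios was not tested. The T and NK cell markers given above were also higher in the Fcmr-/- library, and their part in the result was not tested.

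**Figure D5:**
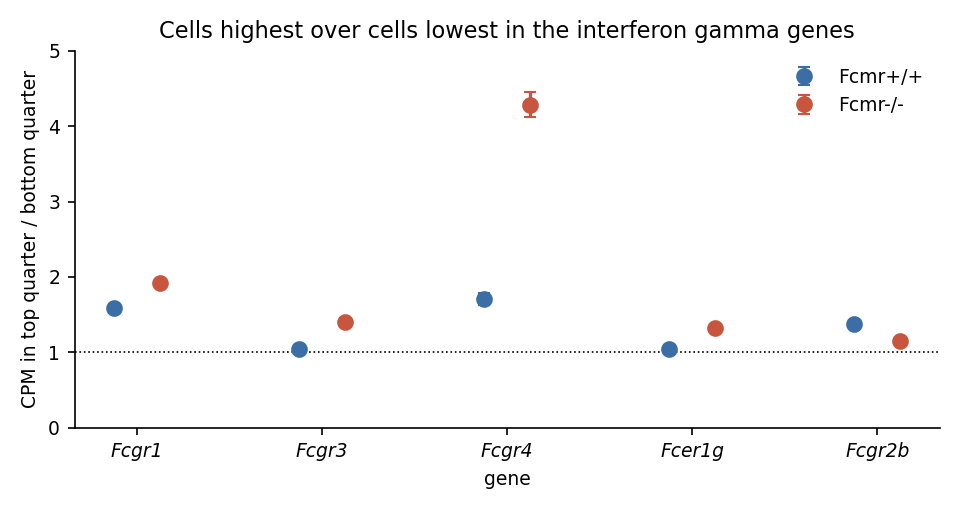
Level of each gene in the 25% of cells highest in the interferon gamma list over that in the 25% lowest (ratio of CPM, with 95% intervals for counting error), in Fcmr+/+ (blue) and Fcmr-/- (red) cells; the dotted line marks equal levels. Fcgr4 in Fcmr-/- cells stands at 4.29, and the other ratios lie between 1.04 and 1.92. The 25% were picked within each library, so the ratios of the 2 libraries are not on 1 scale.

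The same comparison was made with other state lists. The cells compared also differed in depth, and the part of depth in the ratios was not tested. Median UMIs by the monocyte list were 19377 (lowest) and 13264.5 (highest) in Fcmr+/+ cells, and 14071 and 10072 in Fcmr-/- cells. For the C1q list they were 13672.5 and 16824 in Fcmr+/+ and 9806 and 13858 in Fcmr-/- cells. Over the 4 depth bins Fcgr2b was at 665 CPM in the shallowest and 448 CPM in the deepest Fcmr+/+ cells. In Fcmr-/- cells it was at 547 and 445 CPM. By the MHC class II list, Fcgr4 was at 127 CPM in the lowest and 376 CPM in the highest Fcmr-/- cells (ratio 2.96), and at 81.5 and 136 CPM in Fcmr+/+ cells (ratio 1.67). By the same list Fcgr2b had ratios of 1.87 in Fcmr+/+ and 1.64 in Fcmr-/- cells, and Fcgr1 of 1.63 and 1.64. By the monocyte list, Fcgr2b was at 304 and 711 CPM in Fcmr+/+ (ratio 2.34) and at 301 and 645 CPM in Fcmr-/- cells (ratio 2.14), and Fcgr1 had ratios of 1.91 and 2.17. By the type I interferon list, Fcgr4 had ratios of 1.99 in Fcmr+/+ and 2.85 in Fcmr-/- cells, and Fcgr1 of 1.89 and 2.51. By the C1q list, Fcgr4 had ratios of 1.58 and 2.37 in Fcmr+/+ and Fcmr-/- cells, Fcgr3 of 1.51 and 1.43 and Fcer1g of 1.42 and 1.51, while Fcgr1 had ratios of 0.906 and 0.803. By the Arg1 list, Fcgr4 was lower in the highest cells, with ratios of 0.790 in Fcmr+/+ and 0.477 in Fcmr-/- cells, and Fcgr3 (0.869 and 0.826) and Fcer1g (0.888 and 0.759) were lower as well.

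Levels were also compared across the 21 groups of at least 50 cells formed by cluster and library, which share 2 libraries between them. Within the family, Fcgr3 and Fcer1g varied most alike (Pearson r = 0.78 of log2 levels), then Fcgr1 and Fcgr4 (r = 0.75) and Fcgr4 and Fcer1g (r = 0.68). Among 6579 genes with at least 20 CPM in 1 of these groups, those most like Fcgr1 were Slfn1 (r = 0.95), Trim30d (r = 0.92), Pyhin1 (r = 0.92), Slfn8 (r = 0.91) and Xaf1 (r = 0.91). For Fcgr4 they were H2-T23 (r = 0.94), H2-K1 (r = 0.93), Tapbp (r = 0.93), Psme1 (r = 0.91) and Il18bp (r = 0.91). Fcer1g was most like Unc93b1 and Aif1 (r = 0.90 each), Clec4a1 (r = 0.90), Axl (r = 0.88) and Ms4a6c (r = 0.87). For Fcgr3 the nearest were Clec4a2 (r = 0.86), Ubac2 (r = 0.85), Sharpin (r = 0.82), Rnaset2b (r = 0.81) and Shkbp1 (r = 0.80), and for Fcgr2b Cd86 (r = 0.88), Tgfbi (r = 0.86), Stat3, Leng8 (r = 0.84 each) and Btg2 (r = 0.84).

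The pathway downstream of the receptors was near an equal level in both libraries. Of 30 activating kinases and adaptors tested, 1 was at least 1.5-fold higher in the Fcmr-/- library and 0 lower, with a median log2 ratio of 0.09, a share near the 2.4% higher among all genes. Syk, which binds the phosphorylated chain, was at 117 and 112 CPM, and the Src family kinase Lyn at 161 and 180 CPM. Of 15 inhibitory phosphatases and adaptors tested, 1 was higher and 0 lower, to be read against 2.4% higher and 1.69% lower of all genes. The higher gene was Ptpn6 (the phosphatase SHP-1), at 118 CPM in Fcmr+/+ and 185 CPM in Fcmr-/- cells. Inpp5d, the lipid phosphatase that acts at Fcgr2b, was at 99.8 and 91.6 CPM.

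In the lists that follow, 1 or 2 genes past the limit are likewise to be read against the 2.4% higher and 1.69% lower of all genes. Of a list of receptors set beside Fcer1g, 9 were tested, and whether each signals through this chain was not checked. Of these, 1 was higher, Cd300lf, at 86.9 CPM in Fcmr+/+ and 138 CPM in Fcmr-/- cells. The lectins Clec4e and Clec4d, at 212 and 399 CPM in Fcmr+/+ cells, were at 238 and 454 CPM in Fcmr-/- cells. None of the 6 genes tested of the other adaptor, Tyrobp, and its partners passed in either direction, with a median log2 ratio of -0.21; Tyrobp was at 1617 and 1721 CPM. Of 7 other Fc receptors and relatives tested, Pilra was higher (30.7 and 47.2 CPM) and Fcrls lower (106 CPM in Fcmr+/+ and 54.6 CPM in Fcmr-/- cells). Fcgrt, the neonatal receptor that recycles IgG, was at 91.6 and 72.6 CPM. Of 24 uptake and effector genes, Nos2, the inducible nitric oxide synthase, was higher, at 8.67 CPM in Fcmr+/+ and 40.4 CPM in Fcmr-/- cells, and Tnf lower, at 259 and 134 CPM. The oxidase subunits Cybb (348 and 458 CPM) and Cyba (1817 and 1991 CPM) lay within the limit.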

How the data were processed

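The deposited matrices hold UMI counts, not normalized, which the authors obtained with Cell Ranger (version 2.0.1 per the methods) after mapping to GRCm38. The members and all lists were chosen with earlier results of these data known. Cells with 200 to 7000 genes and at most 30% mitochondrial UMIs were kept, and genes seen in 3 cells or more. UMIs were summed over cells and scaled to CPM (times 1000000); log2 ratios had 1 CPM added, and genes with at least 5 CPM in either library counted as tested and past 1.5-fold as called. Intervals are exact Poisson, conditional and Clopper-Pearson intervals at 95%. Replicates are absent, so no test was run. Clustering used Seurat 5.3.0 in R 4.3.3 (log-normalization to 10000, log mean 0.0125 to 3, dispersion over 0.5, 1339 variable genes, 10 components, 30 neighbors, resolution 0.8), with the 5 genes left out. No doublet caller was run; the 5% of cells with the most UMIs were left out as an alternative. Other calculations used Python 3.11.15, numpy 2.4.6, scipy 1.17.1 and pandas 2.3.3. Of these, only the fold calls and ratio intervals were tested on simulated counts. The thinning was checked on part of the Fcmr+/+ cells. Promoters came from RefSeq (GRCm38.p6) and matched 5 of 5 genes; positions came from the GENCODE annotation of GRCm38. Named genes are the 5 members, genes of the lists, and the 5 genes most correlated with each member. A gene of these sets that the text does not name is not reported here.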

Additional observations from a re-analysis of the deposited data

How the results depend on the processing

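With 1 library per genotype, no replicate was left out and the intervals cover counting error only, so the direction between the genotypes rests on 1 library each. No paired analysis was possible because each genotype has 1 library and no test was made. No cluster was named for another cell type, so the alternative that leaves such clusters out gives no value. The alternatives that leave out cluster 1 or clusters 4, 8 and 9, or average over 4 bins of UMIs per cell, were chosen after seeing the data. Adding 0.1 CPM, and scaling by the median ratio over genes (a shift of 0.0029 on the log2 scale), left the log2 ratios of the 5 members within their counting intervals. Causes of the changes below were not tested.

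The log2 ratio of Fcgr4 (1.32) was 1.15 as a mean over cells, 1.17 in thinned cells, 1.24 in cells of at most 5000 genes, 1.29 without the 5% of cells with the most UMIs, 1.15 without T cell, NK cell or melanoma marker UMIs, 0.60 as the mean within clusters, 1.44 without cluster 1, 1.14 over depth bins and 0.70 without clusters 4, 8 and 9, past the limit of 0.58 each time. That of Fcgr1 (0.65) was 0.61 in thinned cells, 0.62 in cells of at most 5000 genes, 0.63 without those marker UMIs and 0.75 without cluster 1, but 0.24 within clusters, 0.52 over depth bins and 0.36 without clusters 4, 8 and 9, all 3 under the limit. Fcgr3 (-0.057) was at -0.095 as a mean over cells, -0.085 in cells of at most 5000 genes, -0.073 without the cells with the most UMIs, -0.11 without marker UMIs, -0.17 within clusters, -0.073 over depth bins and -0.21 without clusters 4, 8 and 9. Fcer1g (0.086) was at 0.070 as a mean over cells, 0.072 in cells of at most 5000 genes, 0.0038 within clusters, 0.077 over depth bins and -0.051 without clusters 4, 8 and 9, where its sign turned. Fcgr2b (-0.070) was at -0.11 as a mean over cells, -0.15 in thinned cells, -0.097 in cells of at most 5000 genes, -0.048 without marker UMIs, -0.089 within clusters, -0.18 over depth bins, -0.098 without clusters 4, 8 and 9 and 0.027 without cluster 1, where its sign turned.

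Of all 8701 genes tested, 209 were higher and 147 lower. With at least 20 CPM these were 132 and 85 of the 5418 genes then tested. Past a fold of 2 they were 69 and 25 of 8701. The range of Fcgr1 over clusters (7.37-fold) was 4.66 at resolution 0.4, 7.92 at 1.2 and 8.04 with the members among the variable genes; that of Fcgr4 was 4.56 at 0.4; that of Fcer1g was 1.39 at 0.4 and 1.47 at 1.2; and that of Fcgr2b was 1.95 at 0.4, 2.88 at 1.2 and 2.90 with the members included. Without thinning, the shares of Fcmr+/+ and Fcmr-/- cells were 90.0% and 91.8% for Fcgr1, 98.5% and 97.0% for Fcgr3, 70.6% and 79.5% for Fcgr4, and 96.2% and 93.1% for Fcgr2b. The ratio of activating UMIs per Fcgr2b UMI between the libraries (1.35) was between 1.12 and 1.35 under its 5 alternatives, lowest without clusters 4, 8 and 9.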
